A study of Mus musculus with 82 samples.

Results

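The small molecule 991, a direct activator of the energy-sensing kinase AMPK, was given to primary mouse hepatocytes with and without AMPK, and the genes whose response differed between the genotypes are described here. The measure is the interaction, that is, the change with 991 in wild-type (WT) cells minus the change with 991 in cells lacking both catalytic subunits (AMPK alpha1-/- alpha2-/-, dKO). An interaction above 0 means that 991 raised the gene more, or lowered it less, in WT than in dKO cells. Members were chosen by this rule from the sample titles, which gave 39 of the 82 arrays of the series: WT with vehicle, WT with 991, dKO with vehicle and dKO with 991. Of 18032 genes measured, 76 passed the test of the interaction.

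Hepatocytes came from C57BL/6 mice by collagenase perfusion, were kept overnight in medium with dexamethasone, and were then exposed to the vehicle DMSO or to 3 µM 991 for 4 h. Each genotype had 2 biological replicates, called preparations below, and each preparation and treatment had 5 arrays as technical replicates, except the vehicle group of dKO preparation 1, which had 4 after the submitters left out an outlier. A further 20 hepatocyte arrays with 300 µM AICAR, a precursor that cells turn into an AMP mimic, entered the fit and are given for comparison. The labels name the dKO genotype but not how the deletion was made or how many mice a preparation came from. With 2 preparations a genotype, p-values rest on the spread among 12 preparation means, and whether the preparations were separate animals is not stated.

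AMPK is a heterotrimer of a catalytic alpha, a scaffold beta and a nucleotide-binding gamma subunit. It is switched on by a falling energy charge. In liver it is known for phosphorylating and inhibiting acetyl-CoA carboxylase and for restraining lipid and glucose output. Compounds such as 991 bind at the interface of the alpha and beta subunits and activate the kinase without changing nucleotide levels. AMPK also acts on transcription, among other routes through the MiT/TFE factors (TFEB, TFE3 and relatives), which drive lysosomal genes and which folliculin, with its partners Fnip1 and Fnip2 and the Rag GTPases, keeps in check.

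The hepatocyte arrays had median log2 intensities from 5.881 to 6.081, and arrays of one preparation and treatment correlated at 0.9976 to 0.9991. Hepatocyte markers had a median level of 13.42 to 13.50. The Kupffer cell list lay lower, at 7.80 to 8.66, but above the median gene at 6.90. Of its 14 genes 11 were at or above that level, and 3 passed the test of the 991 effect in WT cells. The endothelial, stellate, cholangiocyte and lymphocyte lists had group medians from 5.23 to 6.87. No member of these 6 marker lists passed the interaction test. The deposited hepatocyte values carry a trace of adjustment for the biological replicate number: the mean over all arrays numbered 1 and that over all arrays numbered 2 differed by at most 0.047 for any gene. As a result the preparation difference (1 minus 2) of WT mirrored that of dKO, with r = -0.9997 across genes, so a level in one preparation is not free of the other genotype. The 991 change within a preparation, and with it the interaction, is unaffected by a shift added to a whole preparation.

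Transcripts of the deleted subunits were read first. Prkaa1 stood at 5.54 and 5.72 (log2 intensity) in the vehicle WT preparations and at 4.46 and 4.59 in the vehicle dKO preparations, on a single dim probe set. Prkaa2 stood at 9.71 and 9.68 in WT and at 9.56 and 9.63 in dKO. Where these probe sets lie relative to the deleted parts is not known here, so neither level checks the labels. Neither gene was called for the interaction.

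With 991, many genes passed the test in WT hepatocytes and 1 did in dKO hepatocytes. A missed threshold does not show that a gene was unchanged. In WT cells, 1105 genes passed an adjusted p of 0.05 (limma, Benjamini-Hochberg over all genes), which is 6.13% of those tested, with 674 higher (3.74%) and 431 lower (2.39%). In dKO cells 1 gene passed, or 0.00555%, the transcriptional cofactor Cited2, which was lower, and 814 genes had an unadjusted p below 0.05. The difference between the genotypes itself passed for 76 genes, or 0.421% of those tested: 61 were higher (0.338%) and 15 lower (0.0832%). An unadjusted p below 0.05 was reached by 1407 genes, or 7.8%. The median interaction of all genes was 0.011 on the log2 scale, and 53.7% of genes were above 0.

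Each of the 76 genes was also called in WT alone in the same direction. The WT and dKO changes make up the interaction that picked these genes, so this count and the medians that follow are a description. Among the 61 higher genes the median change with 991 was 0.76 (log2) in WT and 0.06 in dKO, and among the 15 lower genes it was -0.72 in WT and -0.02 in dKO. In dKO cells the changes of the 61 spanned -0.20 to 0.58, with 9 at an unadjusted p below 0.05. The call itself leaned on having both preparations of each genotype: 25 genes passed without WT preparation 1, 11 without WT preparation 2, 19 without dKO preparation 1 and 21 without dKO preparation 2. Called in all of these fits were 3 genes, Lce1d, Zfp385b and Ajuba. In all 76 both WT changes lay on one side of both dKO changes, as they did in 45.4% of all genes, so leaving out a preparation could not turn a direction. The calls also leaned on the preparation term: 3 genes passed with no such term, and 0 with a block by replicate number shared by the genotypes (limma, where the 991 interaction in hepatocytes had 539 genes at an unadjusted p below 0.05).

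The choice of probe set bore on many calls. Each gene is read from its brightest probe set, and when all probe sets of a gene were averaged, 37 of the 76 were still called. Of the 44 genes with several probe sets 12 were still called, and 7 of the 32 with a single one lost the call at the same value. The interaction moved by over 1.5 times for 13 genes, all of which lost the call. These were Rab30 (1.46 to 0.94), Rragd (0.67 to 0.30), Neu1 (0.65 to 0.41), Atp6v1b2 (0.64 to 0.41), Hkdc1 (0.63 to 0.35), Wnt8b (0.57 to 0.16), Ankrd12 (0.53 to 0.35), Mdm2 (0.49 to 0.31), Slf2 (0.48 to 0.30), Tnfaip3 (-0.55 to -0.32), Sox4 (-0.57 to -0.14), Ahr (-0.70 to -0.45) and Tsc22d1 (-0.77 to -0.49). Snai2, Stx3, Rsad2, Hgsnat, Aacs, Bhlhe40, G6pc, Irs1, Cited2, Bcl3, Egln3, Baat, Slc1a4, Tmcc3, Rhobtb1, Slc20a1, Mfsd11, Uap1l1 and Piga, named below, lost the call with a smaller move or none.

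**Figure D1:**
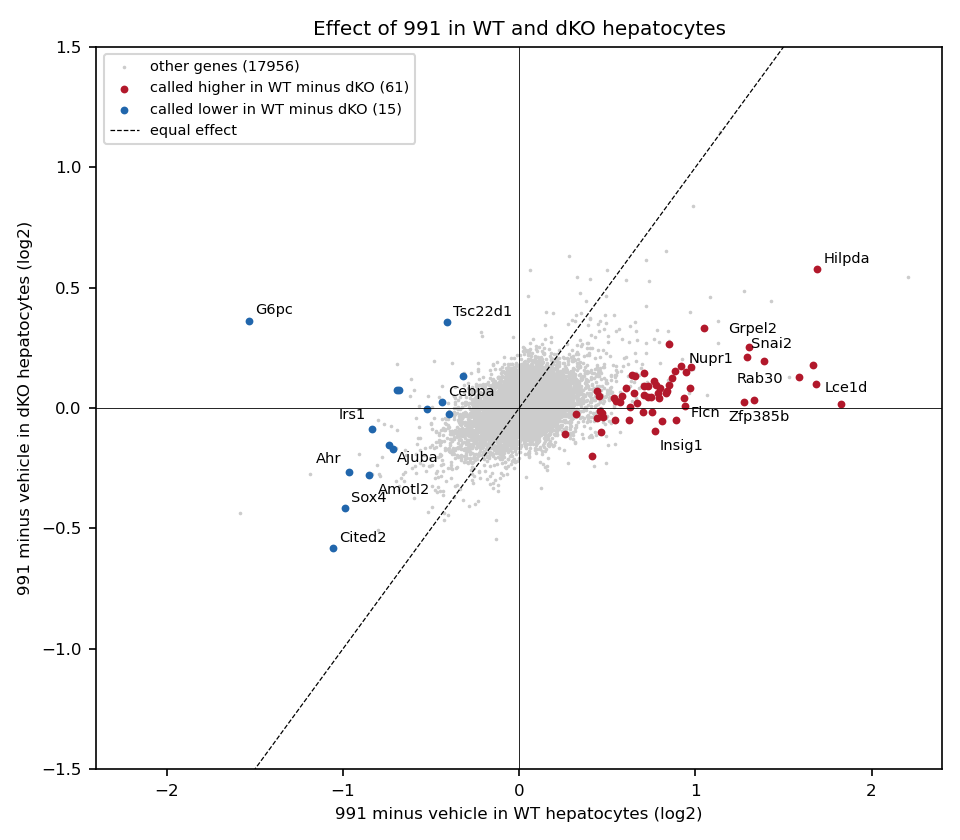
Change with 991 (log2) in WT hepatocytes on the x axis against that in dKO hepatocytes on the y axis, 1 point a gene, with the 61 genes called higher in red, the 15 called lower in blue and the line of equal effects dashed. Called genes spread along the WT axis while their dKO values stay between -0.58 and 0.58.

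Of the genes called in WT, 144 changed by at least 1.5-fold. Among these, 56 (38.9%) were also called for the interaction, and 143 had a smaller or opposite change in dKO. These genes were picked by their WT change, which is part of the interaction, so the second count is a description. Only 6.88% of all 1105 WT calls passed the interaction test, and a missed threshold does not show that the genotypes responded alike.

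Among the called genes were Flcn, Fnip2 and Rragd. Folliculin activates the GTP hydrolysis of the Rag GTPases RagC and RagD at the lysosome, Fnip2 is its binding partner, and Rragd encodes RagD. Of 10 measured genes in the list of the folliculin complex and MiT/TFE factors, 3 were called higher and none lower. Over all genes 0.338% were called higher and 0.0832% lower, shares that stand beside each list count below. The list's median interaction was 0.17 against 0.011 for all genes.

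Flcn was at 9.11 and 9.20 in the vehicle WT preparations, 10.06 and 10.12 in WT with 991, 8.77 and 8.89 in vehicle dKO, and 8.83 and 8.91 in dKO with 991 (log2 intensity). All 10 WT arrays with 991, at 9.82 to 10.22, lay above every array of the other groups, and the dKO groups overlapped. Such a gap, here and below, is a description, since called genes were chosen on these arrays, which are technical replicates of 2 preparations. It was present in 52 of the 61 higher and 10 of the 15 lower genes and was not counted over all genes. The Flcn interaction was 0.90 ± 0.13 (log2, SE; 1.86-fold; adjusted p = 0.0125), and the 3 probe sets of the gene ran from 0.43 to 0.90, with 2 called. The call was lost without dKO preparation 1 or 2, at values of 0.88 to 0.92 over the 4 fits that leave out a preparation.

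Fnip2 rose from 8.80 to 9.60 in WT preparation 1 and from 8.95 to 9.70 in WT preparation 2, against 8.62 to 8.75 and 8.63 to 8.69 in the dKO preparations. Again no WT array with 991 overlapped any other array. Its interaction was 0.68 ± 0.10 (adjusted p = 0.0117). Rragd started higher in WT, at 8.02 and 7.74 with vehicle, and reached 8.68 and 8.33, while dKO cells went from 6.76 to 6.72 and from 7.23 to 7.17, an interaction of 0.67 ± 0.12 (adjusted p = 0.0369). Both calls were lost in each fit that left out a preparation, with values from 0.64 to 0.71. The 3 probe sets of Rragd ran from 0.07 to 0.67, none was called when all probe sets were tested, and their average stood at 0.30 with no call. Fnip1, the paralogous partner, which is outside the naming rule, had an interaction of 0.53 that missed the threshold (adjusted p = 0.477), as did Rragc at 0.27 (adjusted p = 0.303). The transcription factor genes of the list, given for their role, Tfeb (0.00), Mitf (-0.00) and Tfe3 (-0.19) had no call.

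Lysosomal genes leaned the same way, with few single calls. In the list of lysosome and autophagy genes, 33 of 35 measured members (94.3%) had an interaction above 0, against 53.7% of all genes. The median was 0.114. An unadjusted p below 0.05 was reached by 12, all of them higher, against 7.8% of all genes, and 1 was called. That gene was Neu1, the lysosomal sialidase, at 9.0 and 9.21 in vehicle WT, 9.69 and 9.85 in WT with 991, 8.95 and 8.79 in vehicle dKO and 8.97 and 8.81 in dKO with 991. WT arrays with 991 did not overlap the rest, and the interaction was 0.65 ± 0.09 (adjusted p = 0.0105). Its 3 probe sets ran from 0.07 to 0.65, and their average of 0.41 was not called (adjusted p = 0.053). Next in order came Vps18, a subunit of the tethering complexes that fuse vesicles with lysosomes, at 0.44 (adjusted p = 0.0813), the proton pump subunit gene Atp6v1h at 0.28 (adjusted p = 0.146) and Gabarapl1, an autophagosome protein, at 0.27 (adjusted p = 0.153).

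Outside that list, further called genes have known lysosomal roles and were picked out after their values were seen. Ctns, which exports cystine from lysosomes, had an interaction of 0.72 ± 0.10, the proton pump subunit gene Atp6v1b2 0.64 ± 0.10, Ostm1, the partner of the lysosomal chloride transporter ClC-7, 0.52 ± 0.08, and Hgsnat, which acetylates heparan sulfate for degradation, 0.40 ± 0.07. Adjusted p-values were 0.0105, 0.0299, 0.0256 and 0.0427. Together with Neu1 these 5 changed by 0.02 to 0.09 in dKO cells. Ostm1 was at 9.11 and 9.08 in vehicle WT, 9.66 and 9.65 in WT with 991, and between 9.02 and 9.11 in all 4 dKO means. Hgsnat was the exception in its levels: its WT arrays with 991 cleared the WT vehicle arrays but not all dKO arrays. Cln6, an endoplasmic reticulum protein needed for lysosomal function, had an interaction of 0.75 ± 0.12 (adjusted p = 0.0281), and Plekhf1, a lysosome-associated adaptor, one of 0.61 ± 0.10 (adjusted p = 0.0281). Plekhf1 differed from the others in its dKO change of -0.20 (log2), beside a WT change of 0.42. Leaving out a preparation ended the calls of Neu1, Ctns, Atp6v1b2, Ostm1, Hgsnat and Plekhf1 in all 4 fits, and Cln6 kept its call in 1.

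**Figure D2:**
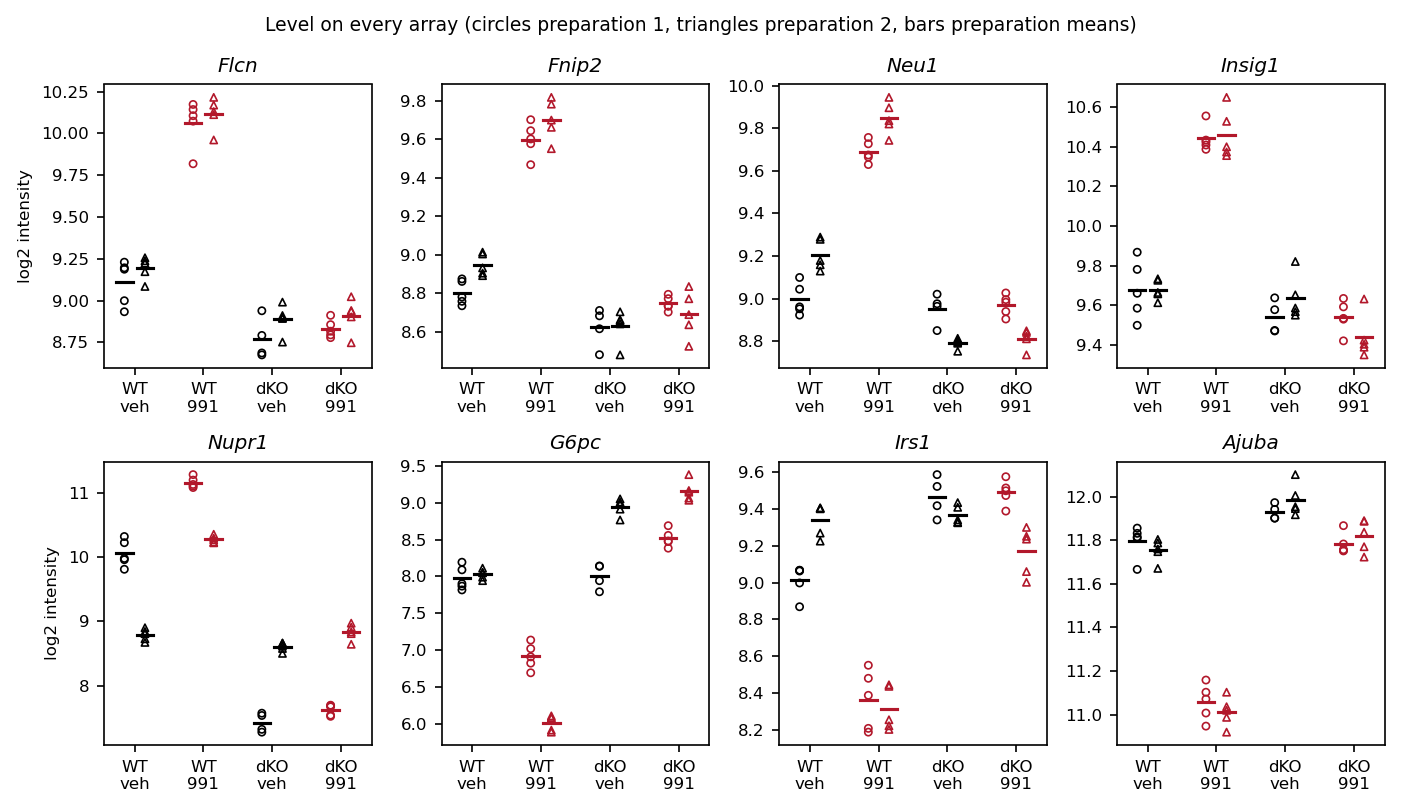
Log2 intensity of 8 genes on each of the 39 arrays, with groups on the x axis, circles for preparation 1, triangles for preparation 2 and bars at preparation means. In Flcn, Fnip2, Neu1 and Insig1 the WT arrays with 991 lie above all others, in G6pc, Irs1 and Ajuba they lie below, and in Nupr1 the preparations stand far apart.

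Genes of membrane traffic included Rab30, the largest positive called interaction that the naming rule gives. Rab30, a Golgi GTPase, went from 7.54 to 9.48 in WT preparation 1 and from 7.80 to 9.04 in WT preparation 2, against 7.46 to 7.62 and 7.86 to 7.96 in dKO. The interaction was 1.46 ± 0.23 (2.75-fold, adjusted p = 0.0256), it ranged from 1.10 to 1.81 when a preparation was left out, and the call was lost without dKO preparation 1 or 2. Stx3, a SNARE of vesicle fusion, had 0.93 ± 0.16 (adjusted p = 0.0369), lost without either WT preparation, and the sorting nexin gene Snx30 had 0.89 ± 0.11 (adjusted p = 0.00863), lost in the same fits. Picked after their values were seen, Ap5s1, a subunit of the fifth adaptor complex, stood at 0.69, Hps4, of a complex that builds lysosome-related organelles, at 0.56, and the GTPase gene Rhoq at 0.35. In dKO cells these 6 genes changed by -0.02 to 0.15.

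Of called genes with roles in lipid metabolism, grouped after their values were seen, Insig1, Hilpda, Plin4 and Aacs were higher, and Baat, described with the bile acid genes, was lower. Insig1 encodes the endoplasmic reticulum protein that retains the sterol sensor SCAP and so holds back SREBP. It was at 9.68 in both vehicle WT preparations, 10.44 and 10.46 in WT with 991, 9.54 and 9.64 in vehicle dKO, and 9.54 and 9.44 in dKO with 991. No WT array with 991 overlapped another array. The interaction was 0.87 ± 0.08 (1.82-fold, adjusted p = 0.00146), and its call was lost without WT preparation 2. In the sterol synthesis and uptake list, 18 of 20 measured genes were above 0 (90.0%, against 53.7% of all genes), with a median of 0.153. An unadjusted p below 0.05 was reached by 9, against 7.8% of all genes, and Insig1 was the 1 called. Sc5d (0.30, adjusted p = 0.0858), Msmo1 (0.34, adjusted p = 0.0915) and Fdps (0.29, adjusted p = 0.132), enzymes of cholesterol synthesis, followed, each with a change of 0.27 to 0.30 in WT and of -0.05 to -0.01 in dKO.

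Hilpda, an inhibitor of the lipase ATGL on lipid droplets, was the called higher gene with the largest change in dKO cells. It went from 9.01 to 10.46 and from 8.83 to 10.76 in WT and from 8.82 to 9.37 and from 8.91 to 9.52 in dKO. Vehicle arrays and 991 arrays did not overlap in either genotype, and the interaction was 1.11 ± 0.17 (adjusted p = 0.0169, lost without WT preparation 2). Plin4, a lipid droplet coat protein, and Aacs, which makes acetoacetyl-CoA from acetoacetate, were called at 0.72 and 0.52 and were picked after their values were seen. In the list of fatty acid and triglyceride synthesis none of 20 genes was called, with 5 at an unadjusted p below 0.05, against 7.8% of all genes. Dgat2, the last enzyme of triglyceride synthesis, stood at 0.41 (adjusted p = 0.0858), and Acacb, an acetyl-CoA carboxylase, at 0.47 (adjusted p = 0.254).

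Other genes of large positive interaction were of mixed function. Zfp385b, a zinc finger gene, was called under every fit that left out a preparation. It was at 8.29 and 7.97 in vehicle WT, 9.52 and 9.40 in WT with 991, and between 7.50 and 7.78 in the 4 dKO means. The interaction was 1.30 ± 0.11 (adjusted p = 0.00107). Snai2, a transcriptional repressor known from epithelial-mesenchymal transition, had 1.19 ± 0.17 (adjusted p = 0.014, lost without WT preparation 2 or dKO preparation 1), and Grpel2, a nucleotide exchange factor of mitochondrial HSP70, had 1.05 ± 0.14 (adjusted p = 0.0105, lost without WT preparation 2). Ypel2 stood at 0.94 ± 0.12 (adjusted p = 0.0105, lost without dKO preparation 2) and Ankrd23 at 0.86 ± 0.13 (adjusted p = 0.0156, lost in all 4 fits).

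Lce1d, a gene of the skin's cornified envelope, had the largest positive interaction and the lowest p of all genes, at 1.81 ± 0.09 (adjusted p = 3.88e-06), and was named after its values were seen. Its level was low, at 4.06 and 3.82 in vehicle WT, 5.82 and 5.71 in WT with 991, and between 3.73 and 3.97 in dKO. The median gene stood at 6.90, and the 10 WT arrays with 991 ran from 4.57 to 6.90, the widest spread among the groups of this gene.

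The other called higher genes were 3 clone-named genes and 26 with a symbol, at interactions of 0.47 to 1.58, with none outside the range of -0.10 to 0.33 in dKO cells. Those called in MEFs too were the kinase gene Pim1 (0.77 in hepatocytes and 0.41 in MEFs), the phosphate importer gene Slc20a1 (0.58 and 0.42), Mfsd11 (0.50 and 0.40), Uap1l1 (0.47 and 0.39), Rhobtb1 (0.77 and 0.38), the glucosamine-6-phosphate deaminase gene Gnpda1 (0.73 and 0.34), the adaptor gene Tifa (0.70 and 0.32), the sialyltransferase gene St3gal4 (0.59 and 0.30), Gas2l3 (0.59 and 0.29), Ankrd12 (0.53 and 0.21) and Slf2 (0.48 and 0.17). They are named because of that call. Of these, Pim1 went from 9.04 to 9.72 and from 9.07 to 9.91 in WT and from 9.16 to 9.15 and from 9.12 to 9.10 in dKO, with WT and dKO alike at the start. Without one, and picked after their values were seen, Hkdc1, a hexokinase-like gene, stood at 0.63 and the DNA methyltransferase gene Dnmt3a at 0.73.

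Stress genes had 1 call. Nupr1, a small chromatin protein induced by stress, was the 1 called gene of 26 in the integrated stress response list, whose median was 0.028. It was at 10.06 and 8.79 in vehicle WT, 11.16 and 10.27 in WT with 991, 7.42 and 8.60 in vehicle dKO and 7.62 and 8.83 in dKO with 991. Levels of WT with 991 overlapped those of vehicle WT across preparations, but within a preparation the change was 1.10 and 1.48 in WT and 0.20 and 0.23 in dKO, giving an interaction of 1.08 ± 0.12 (adjusted p = 0.0062, lost without WT preparation 2). Atf3 (0.99, adjusted p = 0.477), Ppp1r15a (0.77, adjusted p = 0.244) and, picked after its value was seen, Ddit3 (0.79, adjusted p = 0.71), transcription factors and a phosphatase subunit of that response, had large estimates without a call, and dKO cells changed by 0.45, 0.36 and 0.48.

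Immediate early genes had the highest list median, 0.233, with 19 of 24 above 0 (79.2%, against 53.7% of all genes) and 2 called higher. Dusp4 and Dusp1 encode phosphatases that switch off MAP kinases. Dusp4 changed by 0.85 in WT and 0.10 in dKO, an interaction of 0.75 ± 0.13 (adjusted p = 0.0304). Dusp1 moved less, from 12.17 to 12.36 and from 12.20 to 12.53 in WT and from 12.40 to 12.28 and from 12.24 to 12.14 in dKO, an interaction of 0.37 ± 0.06 (adjusted p = 0.0281) made of a WT change of 0.26 and a dKO change of -0.11. Both calls were lost in each fit that left out a preparation. The zinc finger factor gene Egr1, at 10.11 and 9.84 in vehicle WT and 11.33 and 11.68 with 991, against 10.50 and 10.02 and then 10.56 and 10.22 in dKO, missed the threshold (1.40 ± 0.29, adjusted p = 0.0858).

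**Figure D3:**
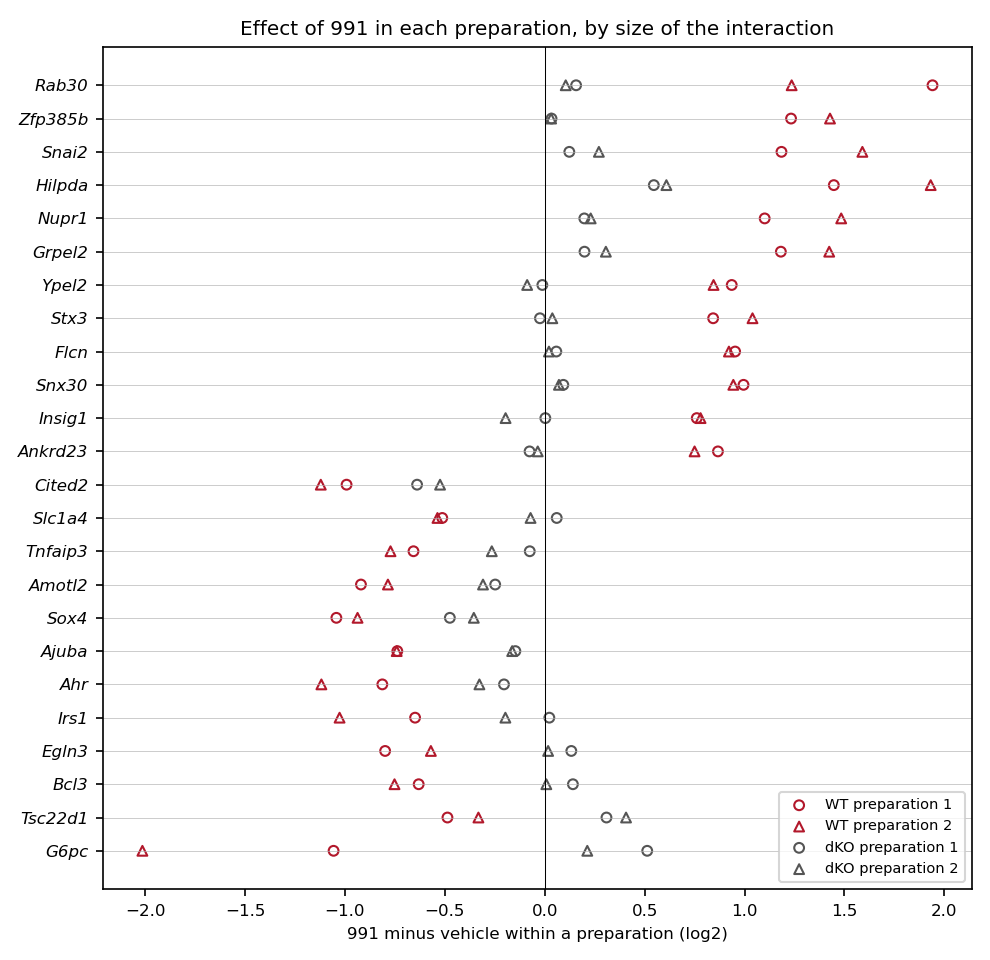
Change with 991 (log2) within each preparation for Flcn and the 23 other genes of largest interaction that the rule names, ordered from the largest positive interaction at the top to the largest negative at the bottom, with WT in red and dKO in grey, circles for preparation 1 and triangles for preparation 2. The red symbols of each gene lie on one side of both grey symbols, which the naming rule requires.

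The largest fall in WT cells among the called genes was that of G6pc. G6pc encodes the catalytic subunit of glucose-6-phosphatase, the last step of hepatic glucose release. It was at 7.97 and 8.03 in vehicle WT and at 6.92 and 6.02 in WT with 991, against 8.0 and 8.94 in vehicle dKO and 8.52 and 9.16 in dKO with 991. All 10 WT arrays with 991 lay below the other arrays, whereas the dKO changes were 0.51 and 0.21 and the dKO arrays overlapped. The interaction was -1.90 ± 0.34 (3.73-fold, adjusted p = 0.0403), from a WT change of -1.54 and a dKO change of 0.36. It ranged from -2.38 to -1.42 when a preparation was left out and lost its call without dKO preparation 1 or 2.

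Cebpa, a transcription factor of hepatocyte identity and of gluconeogenic genes, was the other called gene of 19 in the gluconeogenesis list. It was at 10.68 and 10.81 in vehicle WT, 10.26 and 10.36 with 991, and between 10.94 and 11.10 in the 4 dKO means, an interaction of -0.46 ± 0.06 (adjusted p = 0.0117). The list's median was 0.044, with 13 of 19 genes above 0 (68.4%, against 53.7% of all genes). Ppargc1a, the coactivator of gluconeogenesis and mitochondrial biogenesis, had an estimate of the opposite sign, 0.72 ± 0.16, with no call (adjusted p = 0.112) and a low level of 5.35 to 6.07. Tat, tyrosine aminotransferase, stood at 0.43 (adjusted p = 0.255). Irs1, the adaptor of the insulin receptor, fell from 9.01 to 8.36 and from 9.34 to 8.31 in WT, against 9.47 to 9.49 and 9.37 to 9.17 in dKO (-0.75 ± 0.13, adjusted p = 0.0348). It was the 1 called gene of 19 in the insulin, IGF and FOXO list. The Irs1 and Cebpa calls were lost in each fit that left out a preparation.

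Some lower genes had a smaller change of the same sign in dKO cells. Ajuba and Amotl2 encode junction proteins that act on the Hippo pathway kinases and on YAP. Ajuba went from 11.80 to 11.06 and from 11.75 to 11.01 in WT and from 11.93 to 11.78 and from 11.98 to 11.82 in dKO, and no WT array with 991 overlapped another array. Its interaction of -0.58 ± 0.06 (adjusted p = 0.00146) was called in every fit that left out a preparation. Amotl2, the 1 called gene of 16 in the YAP and SRF target list, changed by -0.85 in WT and -0.28 in dKO (-0.57 ± 0.08, adjusted p = 0.0105, lost in all 4 fits). That list had a median of -0.032, and Ajuba was in no list.

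Transcription factors among the lower genes were Ahr, the aryl hydrocarbon receptor, Sox4, Cited2 and Bcl3, a nuclear partner of NF-kB. Ahr was at 10.46 and 10.55 in vehicle WT, 9.65 and 9.43 with 991, 10.43 and 10.50 in vehicle dKO and 10.22 and 10.18 in dKO with 991. The interaction was -0.70 ± 0.11 (adjusted p = 0.0281, kept only without dKO preparation 2). Cited2 changed by -1.06 in WT and by -0.58 in dKO, where it was the single call, and its interaction was -0.47 ± 0.09 (adjusted p = 0.0403). Sox4 had -0.57 ± 0.10 (adjusted p = 0.0369), but 4 of its 8 probe sets had the opposite sign. Bcl3 had -0.77 ± 0.14 (adjusted p = 0.0494). The last 3 calls were lost in each fit that left out a preparation.

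The remaining lower genes came from several lists. Tnfaip3, which encodes the NF-kB inhibitor A20, changed by -0.71 in WT and -0.17 in dKO (-0.55 ± 0.10, adjusted p = 0.0385) and was the 1 called of 23 inflammatory and acute phase genes, where Icam1 came next at -0.57 (adjusted p = 0.069). Egln3, a prolyl hydroxylase of the hypoxia response, had -0.76 ± 0.13 (adjusted p = 0.0369), the 1 called of 14. Baat, which conjugates bile acids, had -0.38 ± 0.07 (adjusted p = 0.0433), the 1 called of 19 bile acid genes. The amino acid transporter gene Slc1a4 had -0.52 ± 0.10 (adjusted p = 0.045) and Tmcc3 -0.46 ± 0.07 (adjusted p = 0.0293). Each of these 5 calls was lost in all 4 fits that left out a preparation. Tsc22d1, a leucine zipper gene of the TGF-beta response, resembled G6pc in its changes of opposite sign, -0.41 in WT and 0.36 in dKO (-0.77 ± 0.11, adjusted p = 0.0117, lost without dKO preparation 1 or 2).

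Lists with 1 call each on the higher side were the p53 targets, with the ubiquitin ligase gene Mdm2 at 0.49 ± 0.07 (adjusted p = 0.0107), the interferon genes, with the antiviral gene Rsad2 at 0.74 ± 0.12 (adjusted p = 0.0281), and the circadian clock genes, with the repressor gene Bhlhe40 at 0.37 ± 0.07 (adjusted p = 0.0498). For Mdm2, 2 of 3 probe sets had the same sign, and the p53 list's median was -0.00. Mdm2 and Bhlhe40 lost their calls in all 4 fits that left out a preparation, and Rsad2 kept its call in 1. Bhlhe40 was the last gene inside the threshold, and Arhgap22, at an adjusted p of 0.0546, was the first outside it.

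Several lists of AMPK biology had no call. In the list for fatty acid oxidation with PPAR alpha targets none of 19 measured genes passed, with a median of -0.052, although Pdk4, the kinase that shuts pyruvate dehydrogenase, had the largest positive estimate among the genes that the naming rule gives. It went from 8.30 to 9.91 and from 7.80 to 10.61 in WT and from 8.50 to 9.02 and from 8.46 to 9.03 in dKO, an interaction of 1.66 ± 0.34 that missed the threshold (adjusted p = 0.0858). Of 23 genes of mitochondrial biogenesis and respiration none was called and 1 had an unadjusted p below 0.05, against 7.8% of all genes. The AMPK subunits and upstream kinases (12 genes, median -0.09), the NRF2 antioxidant genes (18 genes, median -0.084, 2 above 0), ribosome biogenesis (20 genes, median -0.071) and purine synthesis (14 genes, median -0.062) leaned below the median of all genes without a call. In the unfolded protein response list 1 of 21 genes had an unadjusted p below 0.05, again against 7.8% of all genes. It was the regulator gene Crebrf (0.67, adjusted p = 0.128).

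**Figure D4:**
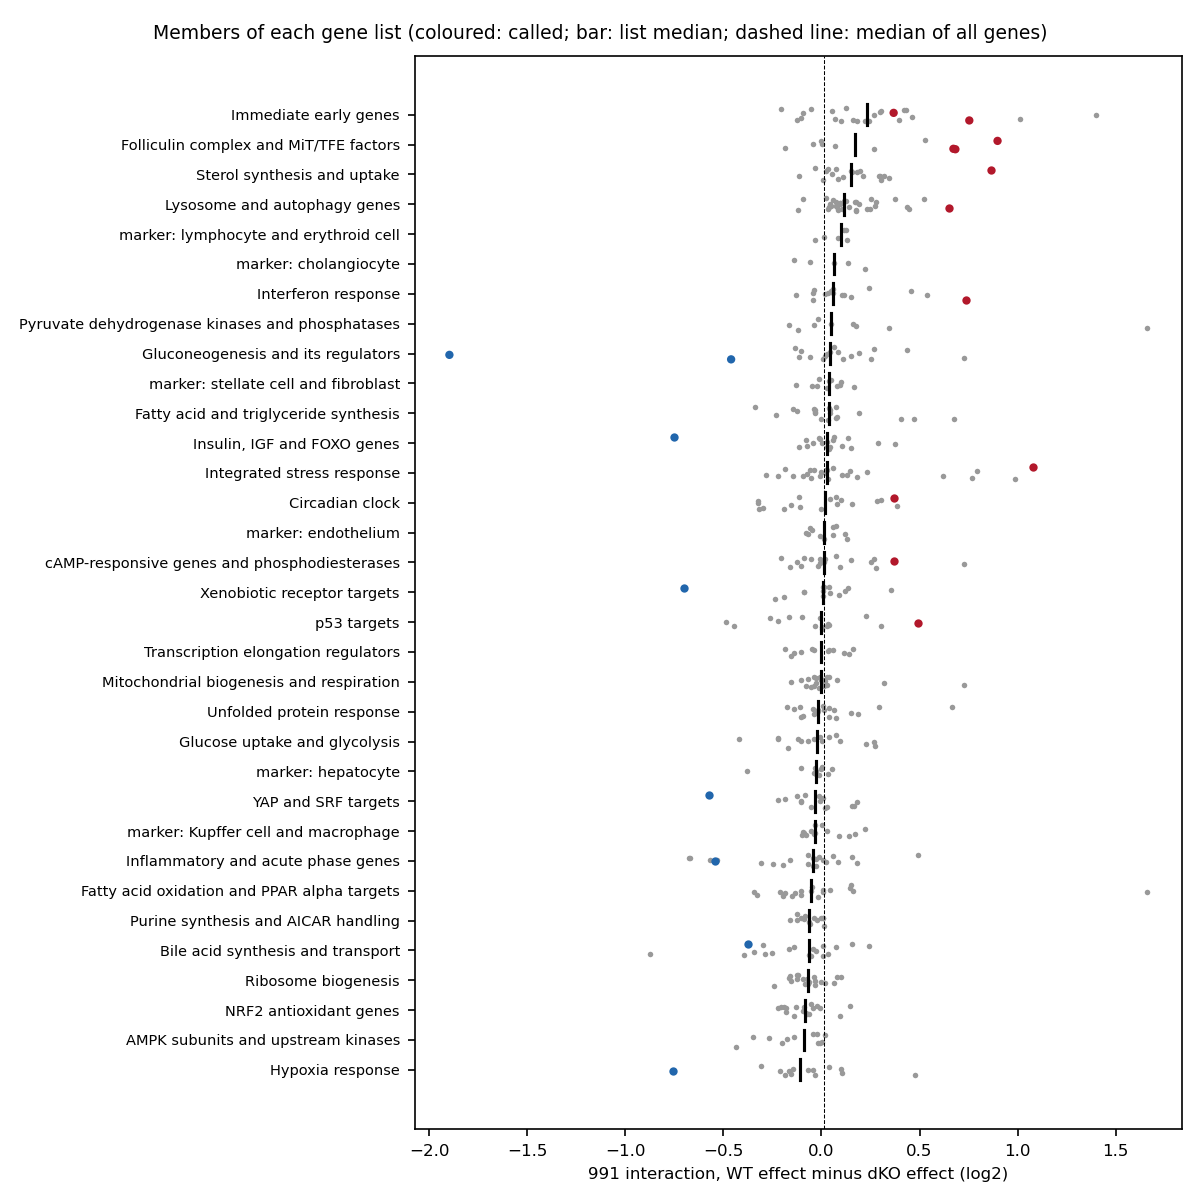
Interaction (log2) on the x axis for each measured member of the 27 gene lists and the 6 marker lists, 1 row a list, ordered by the list median (black bar), with called genes in red (higher) or blue (lower) and the median of all genes dashed. Most members lie near 0. The lists with the highest medians are the immediate early genes (0.233), the folliculin complex (0.17) and sterol synthesis (0.153).

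With vehicle alone, most of the higher genes had lower levels in dKO cells: 51 of the 61 (83.6%) had a lower mean in dKO than in WT, against 45.5% of all genes, and their median difference was -0.23 (log2) against 0.00 for all genes. Uap1l1 (-1.45), Nupr1 (-1.41), Rragd (-0.89), Piga (-0.85) and Ung (-0.73) had some of the widest gaps and were picked out for them. Of the 15 lower genes, 7 were lower in dKO with vehicle, and their median difference was 0.04. The vehicle means also enter the interaction, and genotype and preparation cannot be told apart in a vehicle level, so these differences were not tested.

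For most of these genes the AICAR interaction was near 0. It was called for 56 genes (0.311%), and it shares its vehicle means with the 991 interaction, so values are set side by side. Among the 61 genes higher with 991 the median AICAR interaction was 0.04, and 1 was called, Dusp1. Flcn had an AICAR interaction of -0.07 against 0.90 with 991, Insig1 -0.29 against 0.87, Rab30 -0.00 against 1.46, Nupr1 -0.16 against 1.08 and G6pc 0.13 against -1.90. For G6pc and Rab30 the AICAR value averages WT preparations that disagreed. With AICAR, G6pc went from 7.97 to 9.47 in WT preparation 1 and from 8.03 to 8.0 in WT preparation 2. Rab30 went from 7.54 to 8.36 and from 7.80 to 7.71. The difference between the interactions was tested in the same fit and was called for 284 genes (1.57%), higher with 991 for 204 (1.13%) and lower for 80 (0.444%). It passed in the same direction for 48 of the 61 higher and 9 of the 15 lower genes, which were chosen on the 991 arrays that this test also uses. The difference was 0.96 for Flcn (adjusted p = 0.0033), 0.61 for Neu1 (adjusted p = 0.0059) and -2.03 for G6pc (adjusted p = 0.013).

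Dusp1 was the reverse case. Its AICAR interaction was 1.76 (adjusted p = 7.9e-08) against 0.37 with 991, and the difference of -1.39 passed (adjusted p = 1.1e-06). AICAR lowered Dusp1 in both genotypes, from 12.17 to 11.82 and from 12.20 to 11.90 in the WT preparations. In the dKO preparations it went from 12.40 to 10.27 and from 12.24 to 10.19. The positive AICAR interaction was thus a larger fall in dKO cells, not a rise in WT cells. The doses were 3 µM for 991 and 300 µM for AICAR, and how far each activated AMPK was not measured on these arrays.

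Mouse embryonic fibroblasts (MEFs) of the same genotypes, treated with 10 µM 991 for 4 h, gave an independent set of arrays. They have 3 or 4 technical replicates a group and no biological replicates, so their p-values measure technical spread. In MEFs the interaction was called higher for 797 genes (4.42%) and lower for 168 (0.932%). Of the 61 genes higher in hepatocytes, 25 (41.0%) were called higher in MEFs and 1 lower. Of the 15 lower genes, none was called lower in MEFs and 2 were called higher.

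Of the 10 called folliculin and lysosomal genes described above, grouped after their values were seen, 6 were called in MEFs, Flcn, Fnip2, Neu1, Ctns, Atp6v1b2 and Ostm1, and Rragd, Hgsnat, Cln6 and Plekhf1 were not. In MEFs the interaction was 0.79 for Flcn (adjusted p = 4.4e-06), 0.71 for Fnip2 (adjusted p = 2.4e-06), 0.73 for Neu1 (adjusted p = 0.00011), 0.50 for Ctns (adjusted p = 0.022) and 0.45 for Insig1 (adjusted p = 0.00075). Of the 6 membrane traffic genes, of which 3 were picked after their values were seen, 4 were called in MEFs. Rragd (0.18, adjusted p = 0.41), Zfp385b (-0.17), Hilpda (0.09), Nupr1 (0.06) and Snai2 (-0.05) had no call there. G6pc, a liver gene, stood at -0.11 in MEFs.

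**Figure D5:**
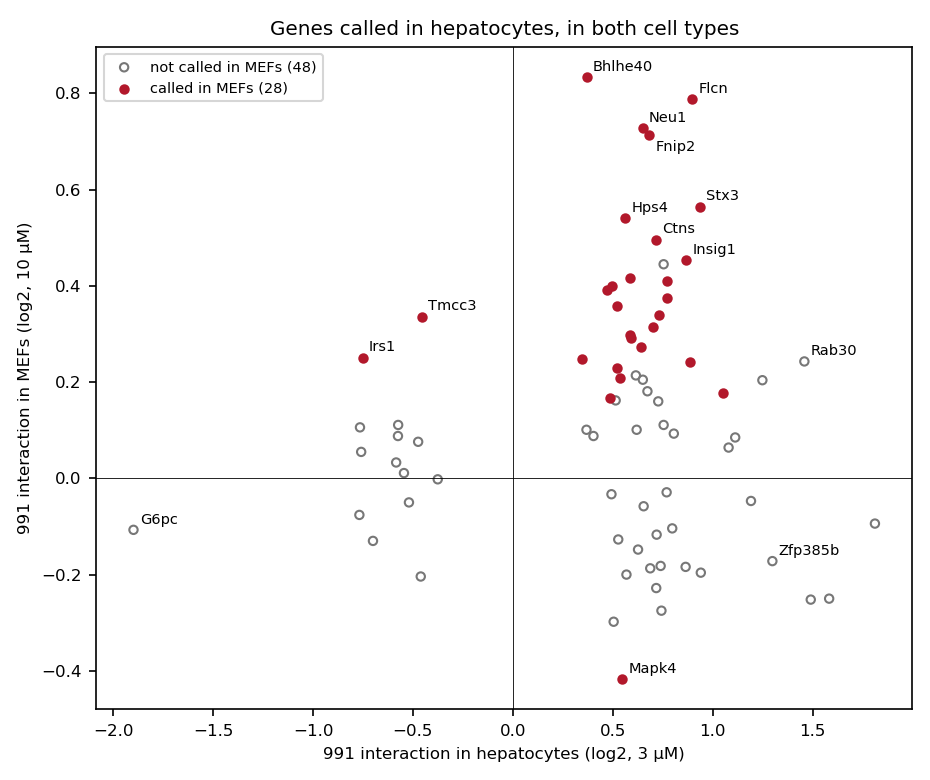
Interaction in hepatocytes (log2, 3 µM 991) on the x axis against that in MEFs (log2, 10 µM 991) on the y axis for the 76 genes called in hepatocytes, with the genes called in MEFs filled. Flcn, Fnip2 and Neu1 are high on both axes. Of the lower genes only Tmcc3 and Irs1 are called in MEFs, both above 0, and Cebpa stands at -0.20 there without a call.

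Promoters of the called genes were read from RefSeq (GRCm38.p6) for 61 of the 76 genes, as 250 bases before to 50 after a start. The E-box CACGTG, the core of the CLEAR element that MiT/TFE factors bind, was in 10 of 68 promoters of the higher genes (14.7%), 4 of 23 of the lower genes (17.4%), 14 of 34 of the lysosome and autophagy list (41.2%) and 8.7% of the promoters of all genes measured. TGACG, one arm of the cAMP response element, read on both strands, was in 39.7% of promoters of the higher genes, 26.1% of the lower genes and 26.4% of all measured. In the lysosome and autophagy list 1 gene, Neu1, was called. None of the promoters read for Flcn, Fnip2, Rragd, Neu1, Ctns, Ostm1, Cln6 and Plekhf1 held CACGTG. A match is a description of letters, and no binding was measured.

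Promoters of 4 genes on which the results turn are shown: the folliculin gene and the Insig1 gene that rose, the phosphatase gene with the larger AICAR interaction, and the glucose-6-phosphatase gene that fell. Each is the 250 bases before the start, 5′ to 3′ on the gene's strand, with CACGTG and that arm on either strand (TGACG or CGTCA) in capitals. They lie at chr11:59810040-59810289 (minus strand, Flcn), chr5:28071162-28071411 (plus strand, Insig1), chr17:26508473-26508722 (minus strand, Dusp1) and chr11:101367466-101367715 (plus strand, G6pc).
Flcn: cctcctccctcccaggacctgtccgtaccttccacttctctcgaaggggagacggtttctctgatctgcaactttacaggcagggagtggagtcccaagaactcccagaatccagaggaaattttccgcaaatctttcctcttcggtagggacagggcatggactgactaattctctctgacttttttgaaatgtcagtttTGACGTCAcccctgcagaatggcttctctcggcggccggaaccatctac
Insig1: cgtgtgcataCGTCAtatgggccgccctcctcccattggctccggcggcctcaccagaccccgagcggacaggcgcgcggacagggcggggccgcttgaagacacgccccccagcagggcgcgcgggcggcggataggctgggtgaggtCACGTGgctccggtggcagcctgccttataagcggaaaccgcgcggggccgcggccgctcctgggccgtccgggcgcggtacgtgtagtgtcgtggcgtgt
Dusp1: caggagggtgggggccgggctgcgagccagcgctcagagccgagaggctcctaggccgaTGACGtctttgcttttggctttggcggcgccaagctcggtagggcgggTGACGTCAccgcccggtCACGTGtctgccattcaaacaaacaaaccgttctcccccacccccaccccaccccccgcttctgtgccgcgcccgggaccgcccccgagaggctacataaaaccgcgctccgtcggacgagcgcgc
G6pc: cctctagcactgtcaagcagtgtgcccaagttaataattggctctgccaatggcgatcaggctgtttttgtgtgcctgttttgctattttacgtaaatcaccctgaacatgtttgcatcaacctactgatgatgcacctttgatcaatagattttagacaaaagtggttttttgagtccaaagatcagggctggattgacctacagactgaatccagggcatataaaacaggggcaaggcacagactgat

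The Flcn promoter had no CACGTG in this window and held TGACG on each strand, which overlap in a full palindrome 49 bases before the start. Insig1 held CACGTG 101 bases before the start and 1 match to TGACG. Dusp1 held CACGTG 126 bases before the start and 3 matches to TGACG, at 191, 143 and 140 bases. In G6pc neither motif was found in the window.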

How the data were processed

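Expression was read from the series' value table, in which the authors deposited log2 intensities of Affymetrix arrays. The submitters' processing notes name RMA and Partek, without versions. The values were kept as deposited, and the step behind the replicate-number adjustment described above has no name in the labels or notes. Of 45101 probe sets, 64 controls were left out, 34945 name 1 gene, 932 several and 9160 none. Through Entrez identifiers 34741 matched RefSeq, and the probe set of highest mean stands for each of 18032 genes. It was chosen apart in hepatocytes and in MEFs, so a gene with several probe sets may be read from different ones.

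Technical replicates were averaged to 12 hepatocyte means (2 preparations, 2 genotypes, 3 treatments). They were fitted with limma 3.58.1 in R 4.3.3, with the preparation within genotype as a fixed block, an intensity trend and 4 residual degrees of freedom. P-values were adjusted (Benjamini-Hochberg) over all genes, and an adjusted p below 0.05 is called. The number of preparations, 2 a genotype, limits the precision. MEFs were fitted apart, array by array. Scripts were tested on simulated data.

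Genes are named by rule: Prkaa1, Prkaa2, Flcn, the 12 largest called interactions in each direction among genes at or above the median level whose preparations separate, leaving out predicted, Xist and Y-linked genes, and in each list every called member and up to 4 of lowest p. Every other gene in the text was chosen after its values were seen. Members and lists were chosen with earlier results of these data known.

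Whether preparations of equal number pair the genotypes cannot be read from these values: the adjustment makes WT and dKO deviations opposite (correlations of -0.775 with vehicle, -0.791 with 991 and -0.696 with AICAR), and the labels name no shared source. Vehicle and 991 of one preparation deviated together (0.687 in WT, 0.846 in dKO), which the block within genotype uses. Arrays of one technical number did not (median 0.002). Alternatives were another normalization, a level filter, the mean of probe sets, other blocks, arrays as samples, and each preparation left out.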

Additional observations from a re-analysis of the deposited data

Results flagged for a closer look

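Among 104 groups of arrays of named genes, 5 held an array far from the rest by Dixon's criterion, where chance gives about 1 in 20. Prkaa2 had 1 vehicle WT array of preparation 1 at 9.85 with the next at 9.72, and 1 vehicle dKO array of preparation 2 at 9.75 with the next at 9.62. Stx3 had a dKO array with 991 of preparation 2 at 9.91, with the next at 9.73. Snx30 had a vehicle WT array of preparation 1 at 7.59, with the next at 7.42. Sox4 had a dKO array with 991 of preparation 2 at 9.07, with the next at 9.24.

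For 3 genes the interaction was called in hepatocytes and in MEFs with opposite signs, and the difference between the cell types was not tested. Where a gene has several probe sets, as Tmcc3 does, the cell types may be read from different ones. Mapk4, an atypical MAP kinase gene, stood at -0.42 in MEFs and 0.55 in hepatocytes, Tmcc3 at 0.34 and -0.46, and Irs1 at 0.25 and -0.75.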

How the results depend on the processing

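All 76 called genes kept their direction under each alternative run on them (69 of them under the level filter). Only quantile normalization, the median of the technical replicates and the mean of probe sets could have turned a direction. The other fits use the same preparation means, parts of them or the arrays behind them. Their directions were fixed in advance or nearly so. The counts of calls moved far more. Counts are given in the order 991 interaction in hepatocytes, 991 effect in WT hepatocytes, 991 effect in dKO hepatocytes, AICAR interaction in hepatocytes and 991 interaction minus AICAR interaction in hepatocytes, which had 76, 1105, 1, 56 and 284 calls. Without a replicate block (no preparation term) they were 3, 167, 0, 16 and 35, and with a replicate block by number shared by the genotypes 0, 57, 0, 7 and 6, where the interaction's calls at an unadjusted p below 0.05 were 539. The deposited values have no difference between the numbers left for that shared block to take up. A block with crossed numbers, added after seeing the data on a sign that the adjustment forces, gave 101, 1809, 4, 73 and 449. With every array as a sample and a preparation block the counts were 2108, 5740, 784, 2308 and 3222, and with the technical replicate number as a further block 2040, 5691, 757, 2271 and 3193. In these fits, and in preparations numbered 1 alone (1106, 3191, 552, 2589 and 3812) or 2 alone (2227, 5371, 547, 3338 and 2316), p-values measure technical spread.

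With only the 8 means of vehicle and 991, the 991 interaction in hepatocytes, the 991 effect in WT hepatocytes and the 991 effect in dKO hepatocytes had 424, 2586 and 45 calls. The 991 interaction in hepatocytes had 42 calls when probe sets of a gene were averaged, 92.9% of them higher against 80.3%, 33 with no trend of the prior variance, and 57 after quantile normalization, of which 55 were among the 76. The 991 effect in dKO hepatocytes had 0 calls among genes at or above the median level (419 at an unadjusted p below 0.05), 0 with no trend (842) and 3 with the median of the technical replicates, and the AICAR interaction in hepatocytes had 20 above the median level. Quantile normalization moved the share of higher calls of the 991 interaction in MEFs from 82.6% to 64.6%, and averaging probe sets moved that of the AICAR interaction in hepatocytes from an even split to 67.1% and that of the 991 interaction minus AICAR interaction in hepatocytes from 71.8% to 59.5%.

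Leaving out 1 preparation gave 11 to 25 calls for the 991 interaction in hepatocytes, 119 to 1093 for the 991 effect in WT hepatocytes, 0 to 1 for the 991 effect in dKO hepatocytes (363 or more at an unadjusted p below 0.05 with limma), 25 to 81 for the AICAR interaction in hepatocytes and 76 to 422 for the 991 interaction minus AICAR interaction in hepatocytes. That leaves 2 residual degrees of freedom, and the lone preparation is assumed to vary like the others. The 991 interaction in MEFs had 965 calls, and 502 to 1716 when 1 array was left out. Of the 76 genes, 50 were called in none of the 4 fits that leave out a preparation. Prkaa2, not called at -0.024, stood at -0.079 to 0.031 when a preparation was left out and at 0.021 in preparations numbered 1 alone, where Tfb1m, a mitochondrial factor not called at -0.15, stood at 0.003. The cause of these moves was not tested.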
